A study of Mus musculus with 2 samples.

Results

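Mir139 is the miRNA gene with the highest count in both small RNA libraries from mouse left cerebral cortex. It was taken by its symbol from the deposited tables, as 1 of 2202 miRNA genes, and it was chosen by its CPM, the count scaled to 1000000 counts at miRNA genes. Its level and rank are therefore given as a description, with no test. Both libraries came from female B6CASTF1/J mice aged 2 months, a hybrid strain whose name points to a cross of a C57BL laboratory strain with the wild-derived CAST strain. There was 1 library per animal and a single group, with no treatment, so the comparisons available were those between genes and between the 2 animals. The labels number the animals separately and call the libraries biological replicates, but both carry the same donor identifier; the names animal 1 and animal 2 follow the replicate numbers. In the microRNA-seq assay, RNA shorter than 30 nucleotides is sequenced and reads are counted at annotated miRNA genes.

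A miRNA gene is transcribed as part of a longer RNA, from which a hairpin is cut and then trimmed to short mature strands. A mature strand is loaded into an Argonaute protein and guides it to messenger RNAs, mainly through bases 2 to 8 from its 5′ end, the seed. Mir139 is carried in an intron of Pde2a, which encodes a phosphodiesterase that is stimulated by cGMP and degrades both cAMP and cGMP. Pde2a is strongly expressed in neurons of the forebrain. In human cells miR-139-5p is best known for repressing growth and migration genes, among them IGF1R and CXCR4.

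The hairpin and its mature strands are shown because they decide which reads can be assigned to the gene. Sequences are from RefSeq on GRCm38.p6, plus strand, written 5′ to 3′. In the hairpin, capitals mark the mature arms, and in the mature strands they mark the seed.
Mir139 hairpin, chr7:101475376-101475443: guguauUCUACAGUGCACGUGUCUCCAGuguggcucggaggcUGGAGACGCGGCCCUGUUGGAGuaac
mmu-miR-139-5p, chr7:101475382-101475403: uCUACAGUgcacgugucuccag
mmu-miR-139-3p, chr7:101475418-101475439: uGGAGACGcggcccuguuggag
The RefSeq hairpin had the same position and the same letters as the GENCODE M21 gene ENSMUSG00000065446.1 used for counting. It was 68 bases long, with the 5p arm at bases 7 to 28, the 3p arm at bases 43 to 64 and 14 bases between them. The counts are per gene, so they do not tell which arm the reads came from.

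No other mature miRNA carried the seed of either arm. Of the 1679 mature mouse miRNAs in the RefSeq table, none but miR-139-5p had its bases 2 to 8, and none had its bases 2 to 7. For miR-139-3p none had bases 2 to 8, and miR-6397 had the same bases 2 to 7. The Mir6397 gene had 0 counts in both animals. A seed held by a single mature sequence was common, with 1218 of the 1679 (72.5%) having one, so this sets Mir139 apart from families such as let-7 but not from most miRNAs.

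The closest mature sequences to miR-139-5p differed from it by 7 edits, against a median of 13 over the table. These were miR-128-3p, miR-7066-3p and miR-7068-3p. The first is shown because it is an abundant neuronal miRNA that shares a stretch of letters with miR-139-5p in another register.
mmu-miR-139-5p: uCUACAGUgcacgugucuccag
mmu-miR-128-3p: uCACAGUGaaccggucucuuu
The shared stretch ACAGUG covers bases 4 to 9 of miR-139-5p and bases 3 to 8 of miR-128-3p, so the seeds, again in capitals, differ. Mir128-1, 1 of the genes that give miR-128-3p, had 71376 counts in animal 1 and 21987 in animal 2, 10.02 and 13.57 times fewer than Mir139 in CPM. Reads of a mature strand with more than 1 gene can map to several places and are then not counted at either gene. The counts of Mir128-1 are therefore uncertain as a level of miR-128-3p.

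The Mir139 hairpin shared little sequence with other hairpins. The longest exact stretch it shared with any of the other annotated miRNA genes, on either strand, was 11 bases, with Gm22370 and Mir6352, and both had 0 counts in both animals. Across the table, 1023 genes shared 22 or more bases with another hairpin, which is the length of a mature strand. Mir139 was not among them, nor was any other of the 10 most abundant genes. Its hairpin had 58.8% G and C, against a median of 52.2% over the 352 detected genes with a RefSeq hairpin. The 5p arm had 54.5% and the 3p arm 68.2%. The predicted folding energy was -35.6 kcal/mol, or -0.524 per base against a median of -0.435, and 50 of the 352 had a lower energy per base. In the predicted fold 19 of the 22 bases of the 5p arm paired with the 3p arm.

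Mir139 lies on chromosome 7 at 101475376 to 101475443 on the plus strand, on mm10 with GENCODE M21. It sits 53.7 kb from the annotated start of Pde2a (101421691 to 101512827, plus strand), 58.9% of the way along the 91.1 kb gene. Of the 12 annotated Pde2a transcripts, 10 span it and carry it in an intron, and the other 2 do not reach it. In all 4 protein-coding transcripts it lies in intron 2, which is 29902 bases long, 23907 bases after the preceding exon and 5927 bases before the next. The transcripts begin at several places, so the distance from the transcript start ran from 14432 to 53685 bases. Mir139 was the single miRNA gene with Pde2a as host. A second protein-coding gene model, Gm45837 (101410886 to 101512819), also spans it without an exon there, and no gene was annotated on the opposite strand.

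**Figure D1:**
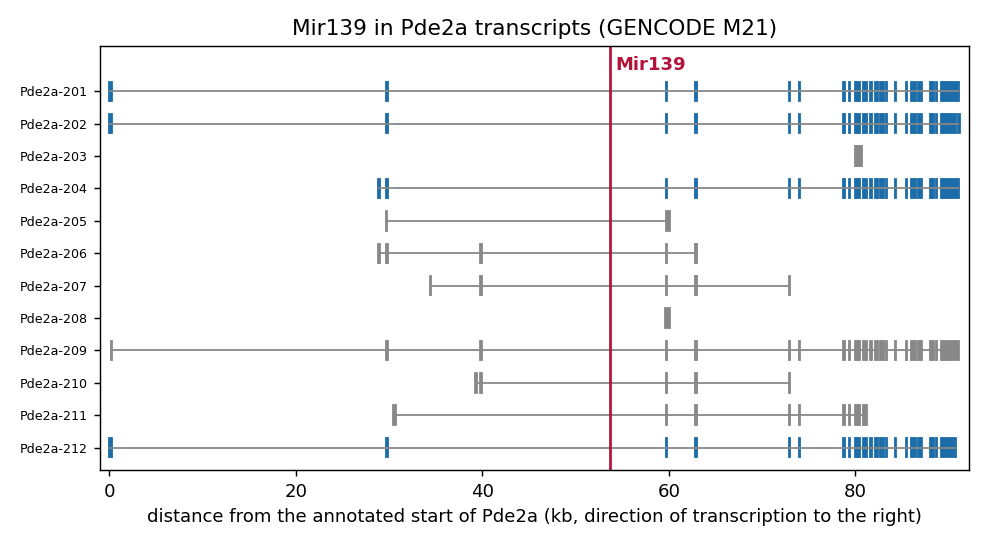
Annotated Pde2a transcripts of GENCODE M21 against the distance from the gene's start in kb, with exons as boxes (protein-coding transcripts in blue, others in grey) and introns as lines. The red line marks Mir139 at 53.7 kb, between exons in the 10 transcripts that span it.

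At Mir139 all reads lay on 1 strand. The gene had 715328 counts on the read strand in animal 1 and 298450 in animal 2. The unstranded column gave the same numbers, and the opposite strand had 0 counts in both animals. A count of 0 allows up to about 3 expected counts at a one-sided 95% limit, or 0.679 CPM in animal 1 and 1.32 CPM in animal 2. Of the 10 most abundant genes, 8 had equal counts in the stranded and unstranded columns.

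Mir139 stood first among the 2202 genes in each animal. Its level was 161994 CPM in animal 1 against 130924 CPM in animal 2, a mean of 146459 ± 21970 CPM (SD, n = 2). Mir139 alone thus took 16.20% of the counts in animal 1, with an exact Clopper-Pearson 95% interval of 16.17 to 16.23%. In animal 2 it took 13.09%, with an interval of 13.05 to 13.14%. PCR copies are counted here as if they were separate molecules, so these intervals cover counting error only. In bulk tissue, fewer cells of a type and less RNA per cell cannot be told apart, so a level here is a share of the tissue's counted small RNA.

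The distance to the next gene depended on the animal. In animal 1 the next gene was Mirlet7b, a let-7 family member that restrains growth genes, and Mir139 was 2.01 times higher. In animal 2 the next gene was Mir132, a miRNA that neuronal activity induces, and Mir139 was 1.65 times higher. The mean was 1.83 ± 0.257 (SD, n = 2). Mature miRNAs are of similar length, so CPM was not divided by gene length in these comparisons. Per base of annotated hairpin Mir139 was still first, with 2382 CPM per base in animal 1 and 1925 in animal 2, and was 2.24 times above Mir127 and 1.60 times above Mir132.

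The 5 genes next below Mir139 lay under it in each animal. Mirlet7b had 80626 and 69612 CPM in animals 1 and 2, 2.01 and 1.88 times less than Mir139. Mir127, an imprinted miRNA of the Dlk1-Dio3 domain, had 74548 and 63978 CPM, 2.17 and 2.05 times less. Both were lower than Mir139 by nearly the same factor in each animal. Mirlet7g had 60613 and 57622 CPM. Mirlet7i had 43061 and 40819 CPM, 3.76 and 3.21 times less. Mir132 had 24389 and 79576 CPM, so its distance to Mir139 went from 6.64 times in animal 1 to 1.65 times in animal 2. The lowest level of Mir139, in animal 2, was above the highest level of any of the 5.

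**Figure D2:**
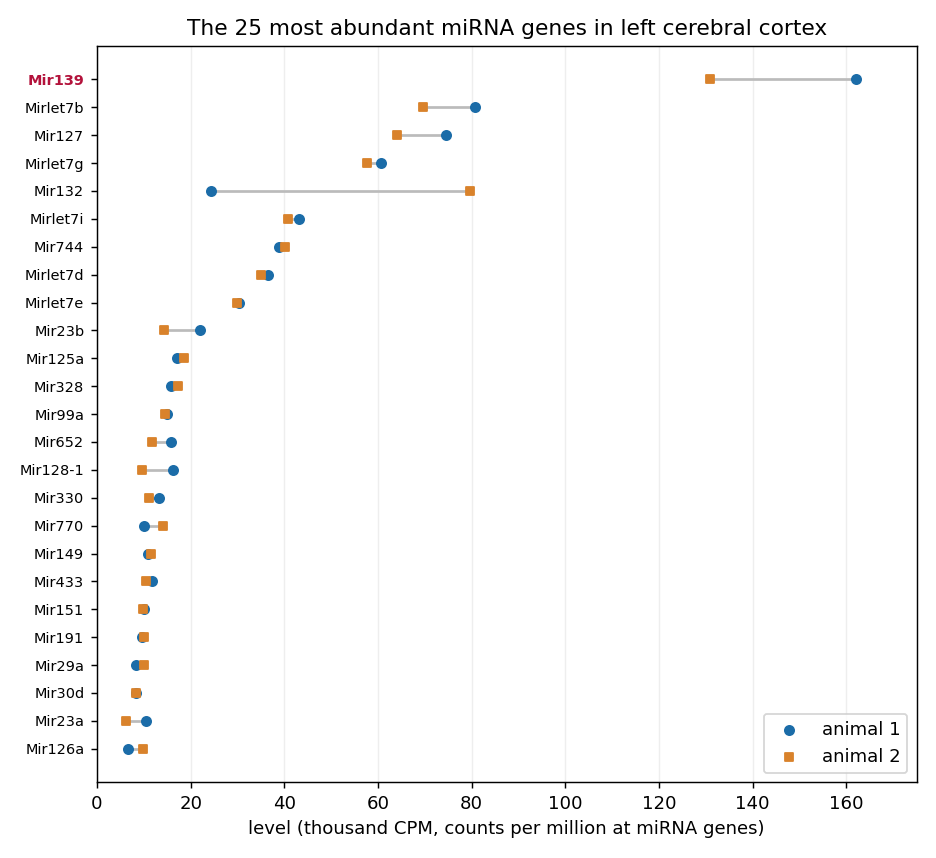
Level of the 25 most abundant miRNA genes in units of 1000 CPM (horizontal axis) for animal 1 (circles) and animal 2 (squares), joined by a line per gene. Mir139 lies at 161994 and 130924 CPM, to the right of every other gene in both animals.

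The weight of Mir139 in the profile is large against the rest of the table. In animal 1 the 2163 least abundant genes together, of which 663 had counts, held fewer counts than Mir139 alone. In animal 2 these were 2151 genes, 578 of them with counts. The median of the 415 detected genes, those with 2 CPM or more in both animals, was 75.6 and 81.2 CPM in animals 1 and 2. Mir139 lay 2142 and 1613 times above these medians.

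**Figure D3:**
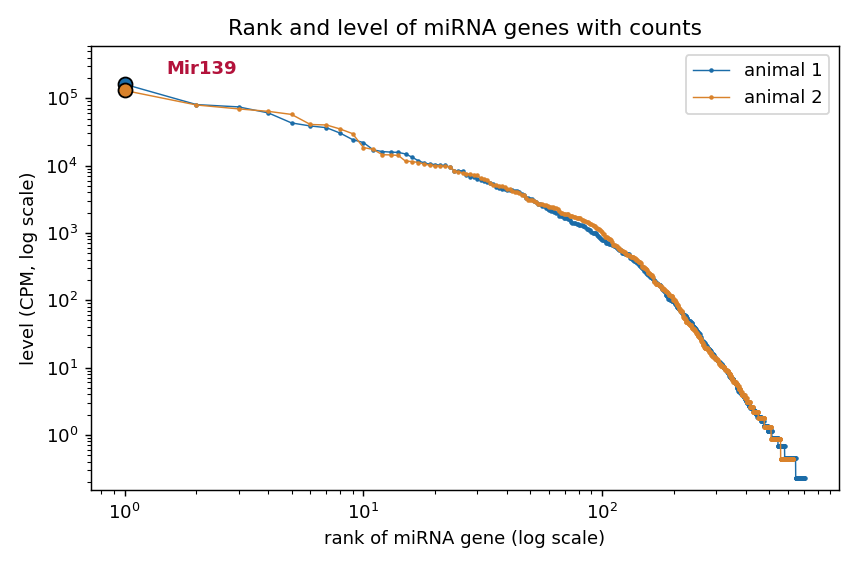
Level in CPM against rank for all miRNA genes with counts, both on log scales, for animal 1 (blue) and animal 2 (orange). Mir139 is the outlined point at rank 1, at 161994 and 130924 CPM, and the curves fall to single counts at their right ends.

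The lead of Mir139 holds among reads counted at genes and is not shown for all mapped reads. Reads mapping to several places stood in a separate entry of the tables, with 5063531 reads in animal 1 and 2585568 in animal 2. That was 7.08 and 8.66 times the count of Mir139. A miRNA with near-identical copies would have as many reads as Mir139 if 14.1% of these reads in animal 1, or 11.5% in animal 2, came from it. The sources used here do not give how they divide among genes. Mir124a, the classic neuronal miRNA with 3 copies, and Mir9, another brain miRNA with 3 copies, are multi-copy genes of this kind.

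Shares of Mir139 against wider totals were smaller and kept animal 1 above animal 2. Of counted reads plus those mapping to several places, it held 7.55% in animal 1 and 6.13% in animal 2. Of all mapped reads it held 6.90% (exact interval 6.89 to 6.92%) and 5.56% (5.55 to 5.58%). Of all reads it held 5.29% (5.27 to 5.30%) and 2.94% (2.93 to 2.95%). The last pair lies wider apart than the others, and the share of unmapped reads was 23.4% in animal 1 and 47.1% in animal 2.

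**Figure D4:**
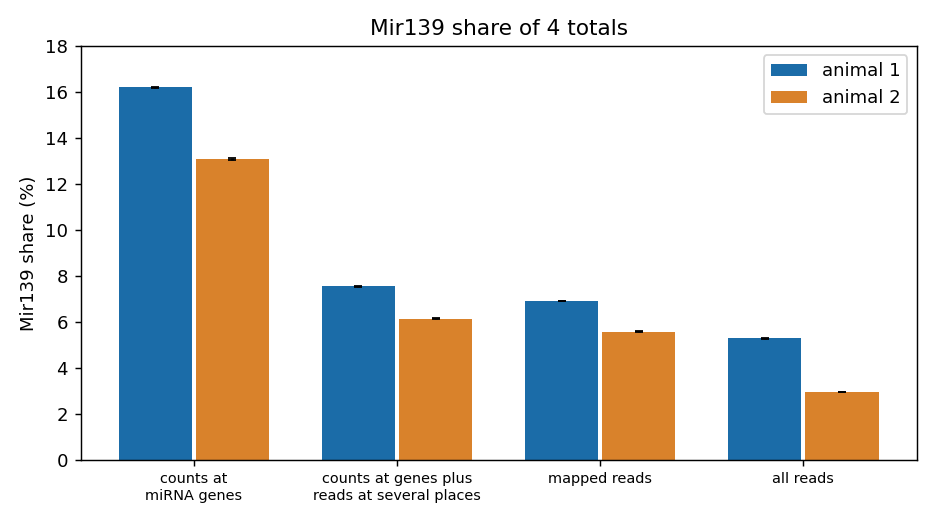
Mir139 as a percentage of 4 totals (counts at miRNA genes, those counts plus reads mapping to several places, mapped reads, all reads) in animal 1 (blue) and animal 2 (orange), with exact 95% counting intervals as error bars. The share falls from 16.20% and 13.09% of counts to 5.29% and 2.94% of all reads.

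Mir139 was higher in animal 1 than in animal 2 by 1.24 times, a log2 ratio of 0.31 on the log2(CPM + 1) scale. The exact 95% counting interval of this ratio was 0.30 to 0.31. Animal 1 held 70.56% of the 2 libraries' Mir139 counts (70.47 to 70.65%), where its total predicts 65.95%. The difference is beyond counting error, but so was that of 56.6% of the 415 detected genes, with 27% of the 415 higher in animal 1 and 29.6% higher in animal 2. Among the 100 genes averaging 1000 CPM or more, 90% were beyond counting error, 43% higher in animal 1 and 47% higher in animal 2. At counts of this size nearly any difference between libraries passes that limit: counting alone gives Mir139 a coefficient of variation of 0.118% in animal 1 and 0.183% in animal 2, whereas the animals differed by an SD of 21970 on a mean of 146459 CPM. With 1 library per animal, animals and library preparations cannot be told apart, and no p-value is given.

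The ratio lay near the middle of the table in size. The median absolute log2 ratio was 0.32 over the 415 genes and 0.24 over the 100 more abundant ones, and 213 and 43 genes lay farther apart than Mir139. In CPM the difference of 31070 was exceeded by 1 gene, Mir132, which went the other way.

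**Figure D5:**
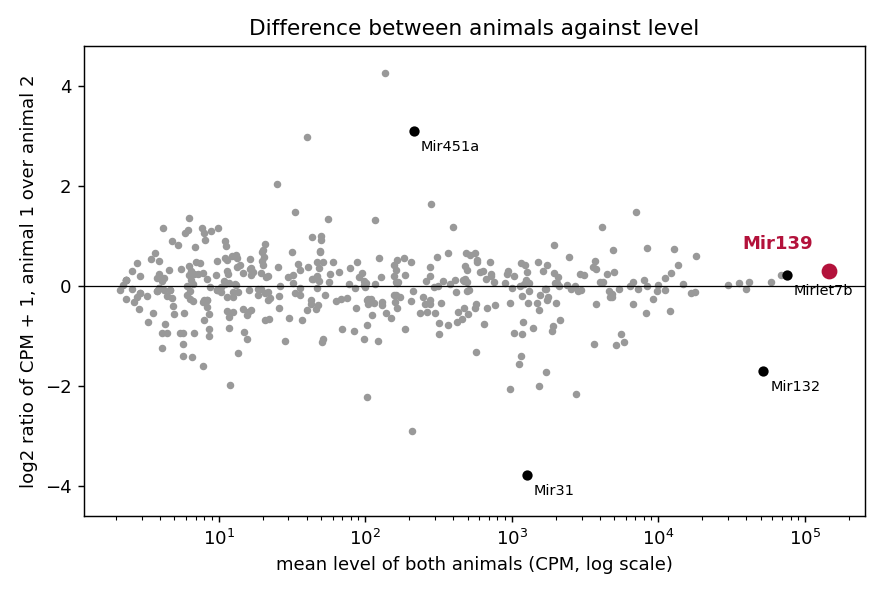
Log2 ratio of CPM + 1 between animal 1 and animal 2 (vertical axis) against mean CPM on a log scale (horizontal axis) for the 415 detected miRNA genes, 1 point per gene. Mir139 (red) lies at the far right with a ratio of 0.31, near Mirlet7b at 0.21, while Mir132, Mir451a and Mir31 lie far from 0.

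A gene this abundant also moves the scale on which the others are read. With Mir139 left out of the totals, the CPM of every other gene rose by 19.3% in animal 1 and 15.1% in animal 2. The log2 ratio of animal 1 over animal 2 rose by 0.05 for each of them. Of the detected genes beyond counting error, 112 were higher in animal 1 and 123 in animal 2 with Mir139 in the totals. Without it, 128 were higher in animal 1 and 108 in animal 2. A shift toward animal 1 is fixed by leaving out a gene that is higher there. TMM scaling, which keeps Mir139, gave 123 and 116, so the side with more genes depends on the scaling.

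The 5 genes of 1000 CPM or more whose ratio between the animals lay nearest to that of Mir139 were Mir543, Mirlet7c-2, Mir485, Mir378a and Mir330. Likeness rests on 1 ratio over 2 libraries, so it is weak. Their log2 ratios were 0.31, 0.29, 0.28, 0.34 and 0.26. Mir543 had 1808 and 1457 CPM in animals 1 and 2, and Mir485 had 5520 and 4545 CPM. Both are on chromosome 12 in the imprinted Dlk1-Dio3 domain. Mir378a, in an intron of Ppargc1b, a coactivator of mitochondrial genes, had 4217 and 3325 CPM. Mir330, in an exon of Eml2 and also on chromosome 7, had 13320 and 11105 CPM. Mirlet7c-2 shares its mature sequence with another let-7 copy, so its counts are uncertain as a level.

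Among miRNAs hosted by introns, Mir139 held the largest part. In all, 734 miRNA genes lay in an intron of a protein-coding gene on their own strand, 169 of them detected and 400 at 0 in both animals. Their share of counts was 45.2% and 39.4% in animals 1 and 2, and Mir139 made up 35.8% and 33.2% of that. Without it the class held 29.0% and 26.3% of counts, and the detected members other than Mir139 had a median of 48.5 and 42.6 CPM.

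The next intronic genes were hosted by genes of varied function. Mirlet7g lies in Wdr82. Mir744 in Map2k4, a kinase of the JNK pathway, had 38788 and 40153 CPM in animals 1 and 2, 4.18 and 3.26 times less than Mir139. Mirlet7e in Spaca6 had 30338 and 29884 CPM, and its neighbour Mir99b had 10367 and 3710 CPM. Mir23b had 21982 and 14419 CPM and Mir652 in Tmem164 had 15703 and 11646 CPM. Mir128-1 in R3hdm1 had 16164 and 9645 CPM, Mir149 in Gpc1, a proteoglycan of the cell surface, had 10899 and 11495 CPM, and Mir151 in Ptk2, the focal adhesion kinase, had 10040 and 9899 CPM. Of these 9, 6 were higher in animal 1, as Mir139 was, 2 were higher in animal 2 and Mir151 was inside counting error. That 8 of 9 lay beyond it is close to the 90% found over the 100 genes averaging 1000 CPM or more.

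Hosts with symbols of cyclic nucleotide or arrestin signalling families, with Arpp21 added by name, held 10 miRNA genes. Mir139 was far above the other 9. Of those 9, 3 were detected, where 18.8% of all miRNA genes and 23.0% of the intronic class were. Mir128-2, in an intron of Arpp21, a phosphoprotein regulated by cAMP in striatal and cortical neurons, had 13104 counts in animal 1 and 4494 in animal 2, or 2968 and 1971 CPM. Mir326, in an intron of Arrb1, the gene of beta-arrestin 1, had 3388 and 1523 counts, or 767 and 668 CPM. Mir582 in an intron of Pde4d, a phosphodiesterase specific for cAMP, had 40 and 33 counts. Mir139 was 43.3 times their sum in animal 1 and 49.3 times in animal 2. Most of that sum was Mir128-2, which gives miR-128-3p as Mir128-1 does, so its counts are uncertain as a level.

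The undetected members were low or empty. Mir7010 in Gucy1a1, a subunit of soluble guanylate cyclase, had 11 and 3 counts, and Mir7115 in Arrb2 had 9 and 2. Mir7672 in Pde12 had 0 and 3, and Pde12 is an enzyme of RNA tails that fits the list by its symbol alone. Mir1904 in Pde4d, Gm44413 in Pde1c and Mir7225 in Pde4dip had 0 counts in both animals. The other miRNA genes in hosts whose symbols begin with Pde thus had between 0 and 40 counts per animal. Messenger RNA of the hosts was not measured in these libraries.

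On its chromosome Mir139 made up most of the miRNA counts. Chromosome 7 had 153 miRNA genes, 28 of them detected, with 18.27% and 14.96% of counts in animals 1 and 2. Mir139 was 88.6% and 87.5% of this. Of the 42 in introns of protein-coding genes it made up 98.1% of counts in each animal. The next of these were Mir708 in Tenm4, a teneurin of neuronal adhesion, at 1418 and 1054 CPM, Mir326, Mir3099 in Usp29 at 698 and 633 CPM and Mir483 in Igf2 at 149 and 100 CPM.

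Mir139 stood alone in its region. The nearest miRNA gene upstream was Mir3102, 593 kb away on the opposite strand in an exon of Arhgef17, with 868 and 1093 CPM in animals 1 and 2. The nearest downstream was Gm22655, 406 kb away in an intron of Anapc15, with 0 counts in both. Mir3102 was higher in animal 2, the reverse of Mir139.

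Marker miRNAs of neurons were unevenly represented. A list of 12 neuron genes had 8 detected and a summed level of 55604 and 102181 CPM in animals 1 and 2. Of the 8 detected, 5 were higher in animal 1 and 2 higher in animal 2 beyond counting error, and 1 was inside it. The share beyond it was larger than the 56.6% of all detected genes. Mir128-1, Mir128-2, Mir137, Mir138-1, Mir138-2 and Mir132 averaged above 1000 CPM, where 90% of genes were beyond it. Mir132 alone had 79576 CPM of the sum in animal 2. Mir139 alone was 2.91 and 1.28 times these sums of counted reads. The sums leave out any reads of multi-copy members that mapped to several places. Mir139 is therefore not shown to exceed the list among all mapped reads. Within the list, Mir124a was near 0 at its 3 copies, with 11, 6 and 4 counts in animal 1 and 2, 4 and 0 in animal 2, and these copies share sequence. The 3 copies of Mir9, which also share sequence, were low as well, with 62 and 13 counts at Mir9-1, 10 and 4 at Mir9-2 and 202 and 94 at Mir9-3. The counts of Mir124a and Mir9 are therefore uncertain as levels. Markers of striated muscle had a summed 23.6 and 16.2 CPM, with Mir1a-1, Mir1a-2, Mir133a-1 and Mir133a-2 at 0. Mir122, the liver miRNA, had 60.9 and 36.8 CPM, and the 3 hindbrain and spinal cord genes had a summed 19.5 and 22.8 CPM.

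Lists of other cell types moved between the animals, in both directions. Summed erythroid markers were 459 and 91.2 CPM in animals 1 and 2, in the direction of Mir139. Mir451a, the main red cell miRNA, had 385 and 43.9 CPM, Mir144 had 40.8 and 9.21 CPM, and Mir486 had 33.5 and 38.2 CPM. The sums went the other way for the 3 oligodendrocyte genes (1642 and 3461 CPM), the 3 astrocyte genes (8960 and 13935 CPM), the 4 microglia and leukocyte genes (1760 and 2313 CPM), the 3 vascular genes (11469 and 15155 CPM) and Mir204 of the choroid plexus (480 and 652 CPM). Most of the astrocyte sum was Mir29a, with 8412 and 10012 CPM. Its other members were Mir31, with 171 and 2361 CPM, and Mir21a, with 376 and 1562 CPM. Not every member of the lists moved with its sum. Mir219a-1 of the oligodendrocyte list, with 7.47 and 6.14 CPM, was inside counting error. So was Mir142 of the microglia and leukocyte list, with 31.7 and 35.1 CPM, and most of that sum was Mir150, with 1319 and 1668 CPM. None of these lists has a member at 0 in both animals. Their part in the Mir139 difference was not tested.

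The letters that pair with the miR-139-5p seed were looked up in mouse messenger RNAs of genes known from human cells as its targets. The motif was ACTGTAG, the reverse complement of bases 2 to 8, searched on the messenger strand of the longest annotated 3′ UTR of each gene. It occurred in 2301 of 20979 such regions (11.0%). The Cxcr4 region, of a chemokine receptor, held 2 matches in 644 bases, where 4.87% of regions within 20% of that length held any. The Fos region, of an activity-induced transcription factor, held 1 in 815 bases (5.87% of like regions). The Igf1r region, of the IGF1 receptor, held 2 in 7267 bases (44.4% of like regions). The sites are shown because they are the letters that the seed printed above would pair with, in capitals.
Cxcr4, UTR base 267: tatctgtgtgtaggACTGTAGa
Cxcr4, UTR base 275: tgtaggactgtagaACTGTAGa
Fos, UTR base 537: agctatatccatgtACTGTAGt
Igf1r, UTR base 2596: tacctgttttaatcACTGTAGa
Igf1r, UTR base 3785: gggttttcttctacACTGTAGg
The motif was not among the letters of the Rock2 region or of the region of Pde2a, the host gene. These matches describe sequence alone. No messenger RNA was measured, so nothing here bears on repression.

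Library totals frame these values. Animal 1 had 13533476 reads with 4415759 counted at miRNA genes, and animal 2 had 10143234 with 2279562 counted. Of mapped reads, 42.6% and 42.5% were counted. At the share of animal 1, animal 2 would have had 369276 counts of Mir139 in place of the 298450 found.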

How the data were processed

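The authors deposited 1 table per library with unnormalized read counts at miRNA genes. The build mm10 and the annotation GENCODE M21 are named in metadata deposited with each library; the sources used here do not give the aligner, counting tool or adapter trimming. The 3 count columns have no header, and their strand roles were read from the values: of the 2 strand-specific columns, the one with the larger sum was used. The 4 summary entries were left out of totals. They held 67.4% of reads in animal 1 and 77.5% in animal 2. Mir139 was found by matching identifiers to GENCODE M21, which held all 2202.

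CPM used the sum of all gene counts; log values were log2(CPM + 1). Intervals are exact Clopper-Pearson 95%. With 1 group no differential test was run. The counting-error calls were tested on simulated data; the pass criterion was limited to genes of 100 CPM or more after a first criterion over all detected genes had been missed. TMM factors came from edgeR 4.0.16 and size factors from DESeq2 1.42.0 (R 4.3.3). Folding used RNAfold 2.7.2. A host was a gene on the same strand spanning the miRNA gene, named models before predicted ones. RefSeq hairpins matched 968 of the 2202 symbols.

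Named genes followed a rule: the 5 next in level, the 5 nearest in ratio at 1000 CPM or more, genes in hosts with symbols of cyclic nucleotide or arrestin signalling, chromosome neighbours, the most abundant intronic genes (5 on chromosome 7, 10 overall), genes sharing seed or sequence, and marker genes. Members, lists and rule were chosen with earlier results of these data known. Mature miRNAs by edit distance, target genes and Gm45837 were added afterwards. Alternatives were other scalings, totals, filters, pseudocounts, the unstranded column, single libraries and, added later, hairpin length and a total with reads mapping to several places.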

Additional observations from a re-analysis of the deposited data

How the results depend on the processing

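Mir139 remained first in both animals per hairpin base and in the unstranded column, where its counts were the same. Rank was taken within each library, so leaving out 1 library could not change it in the other. The log2 ratio of Mir139 between animals stayed positive and beyond counting error under 9 alternatives and a total added after the data were seen. Several of these could hardly change its sign. The pseudocounts are tiny beside its level, and its unstranded counts were the same. Leaving Mir139 out of its own total can only widen its ratio. The ratio ran from 0.30 to 0.36, apart from all reads as the total, where it was 0.85. Unmapped reads were 23.4% and 47.1%. The level moved with the total: from 146459 CPM to 171979 CPM without Mir139 itself in the total, 62341 of mapped reads, 41140 of all reads and 68404 of counts plus reads mapping to several places. The share moved from 14.6% to 6.23% of mapped reads and 4.11% of all reads. Leaving out 1 library gave levels of 130924 to 161994 CPM, shares of 13.1 to 16.2% and 1.65 to 2.01 times the next gene. TMM gave 146597 CPM and DESeq2 size factors 146494 CPM. Genes beyond counting error numbered 235 of 415 (56.6%), 207 of 307 (67.4%) at 10 CPM or more and 256 of 746 (34.3%) without a filter. TMM gave 239 of 415 and DESeq2 size factors 237 of 415. The unstranded column gave 216 of 389 (55.5%), and the total without Mir139 gave 236 of 414 (57.0%). More genes were higher in animal 2, except under TMM (123 against 116) and without Mir139 in the total (128 against 108). No paired analysis was possible because there was a single group. Counting error is small at Mir139; with 2 libraries, the spread between animals is known from 1 difference.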
